A study of Mus musculus with 46 samples.

Results

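Mammary tumors that lacked BRCA1 were compared with normal mammary gland, using 1 Affymetrix mouse genome array for each tumor or gland. The tumor group was made up of every array titled Brca1-/-p53+/- and the gland group of every array titled FVB pregnant, which gave 5 tumors and 5 glands, or 10 of the 46 arrays of the series. The other 36 arrays held tumors of 7 further mouse models and served as a second comparison. Values are log2 expression levels of RNA, so a difference of 1 stands for a 2-fold change, and levels are comparable between arrays for 1 gene but not between genes.

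The tumors arose in mice with both BRCA1 alleles flanked by loxP sites (BRCA1 fl/fl), 1 intact p53 allele (p53+/-) and Cre recombinase under the MMTV promoter (MMTV-cre), on a mixed 129B6/FVB background. The MMTV promoter is active mainly in mammary epithelium and in some other secretory and lymphoid tissues. Per the methods the tumors were primary tumors taken while small from individual mice, and the glands came from late-pregnant females, a stage chosen because epithelium then outweighs fat. The glands were FVB, and no engineered allele was given for them. All the tumors differed from all the glands in genotype, strain and reproductive state, and these cannot be told apart in this comparison. Nothing in the labels gave an age for either group.

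BRCA1 takes part in the repair of DNA double-strand breaks by homologous recombination, in the protection of stalled replication forks and in checkpoint control, and tumors that lose it in the mammary gland usually also lose p53 function. The late-pregnant gland is a secretory organ in the making: prolactin acts through the transcription factor STAT5 to switch on caseins, whey proteins and fat synthesis in luminal alveolar cells, which are wrapped in contractile myoepithelial cells.

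The 5 tumors differed far more among themselves than the 5 glands did. Correlations of the log2 values across genes ranged between 0.69 and 0.94 for pairs of tumors and between 0.91 and 0.96 for pairs of glands. Tumors 3 and 4 were the closest pair of tumors. Tumor 2 correlated with the glands at 0.79 to 0.83, tumors 3 and 4 at 0.69 to 0.73. Genes are not independent replicates, and these correlations are given as a description. The median SD of a gene was 0.86 over the tumors and 0.47 over the glands.

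Some arrays stood apart from their group or went against their labels. Tumor 5 had a level of 3.91 for Xist, the RNA that silences the second X chromosome in females, against 12.96 to 13.46 in the other 4 Brca1-/-p53+/- tumors. The same tumor had 8.62 for the Y-linked gene Kdm5d, against at most 4.08 in the others, although all samples were labelled as female. Other probe sets went the same way, some by less. For Xist they were at 3.56 and 7.37 in tumor 5, against at least 7.53 and 12.70 in the other tumors. For Kdm5d the second was at 3.91, against at most 2.27. Neither Kdm5d probe set passed the expression filter, so that gene was not tested. Gland 5 also lacked Xist (2.50, against 11.30 to 13.02 in the other glands) but showed no Kdm5d (2.26). Tumor 2 carried skeletal muscle and fat genes at or above gland levels, and gland 2 had little of the muscle genes. H2-Eb1, a class II antigen-presentation gene that varies between mouse strains, was at 11.28, 10.61 and 10.63 in tumors 1, 3 and 4, at 4.15 in tumors 2 and 5, and at 4.15 to 5.71 in the glands. Tumor 5 was low in other class II genes as well (H2-Ab1 3.74, H2-Aa 5.77), while tumor 2 was not low in these (10.63 and 12.2). What the H2-Eb1 levels come from was not tested. The counts of the main gene lists are therefore also given for some of the fits without tumor 2, tumor 5, gland 2 or gland 5.

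In total 9329 genes were tested with limma, and 639 genes (6.85%) were higher and 697 genes (7.47%) lower in tumors at a Benjamini-Hochberg adjusted p under 0.05. Before adjustment 3019 genes had a p under that value. All 5 tumors lay above all 5 glands for 545 genes (5.84%) and below them for 622 genes (6.67%). The number of calls depended on which arrays were included. Without tumor 2 there were 1044 higher (11.2%) and 955 lower genes (10.2%), and without tumor 5 there were 1061 (11.4%) and 982 (10.5%). Without both tumors there were 1636 (17.5%) and 1277 (13.7%), without gland 2 there were 285 (3.05%) and 318 (3.41%), and without gland 5 there were 385 (4.13%) and 429 (4.60%). The other arrays moved the counts as well. Without gland 1, 3 or 4 the higher genes numbered 306 to 368 and the lower 354 to 519. Without tumor 1, 3 or 4 they numbered 320 to 397 and 391 to 437. With a variance of their own for the tumors, 622 genes (6.67%) were higher and 645 (6.91%) lower. The median difference over all genes was 0.07, which is the level against which the medians of the gene lists are to be read. The counts of the gene lists are likewise to be read against the shares of all genes given here for the same arrays. Because these are bulk samples, fewer cells of a type and less RNA per cell cannot be told apart.

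The 10 most increased genes were taken from called genes with all tumors above all glands, so their separation was fixed by that choice. Aqp5, a water channel of secretory epithelia, showed the largest increase among them. Its level was 8.48, 10.09, 11.38, 11.96 and 13.22 in tumors 1 to 5, against 2.50, 2.51, 2.97, 3.38 and 3.38 in glands 1 to 5. All tumors were far above all glands, and the glands were close to the floor of about 2 that GC-RMA gives to silent genes. The means were 11.03 ± 1.81 in tumors and 2.95 ± 0.44 in glands (SD, n = 5 each), a difference of 8.08 (SE 0.76, limma adjusted p = 0.000538).

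Car12 and Cd44 were chosen by the same rule. Car12, a membrane carbonic anhydrase, was at 10.14, 6.09, 5.59, 7.81 and 11.60 in tumors 1 to 5, against 3.22, 2.21, 1.99, 2.39 and 3.20 in the glands (difference 5.65, SE 1.06, limma adjusted p = 0.0101). Cd44, the hyaluronan receptor, was at 12.24, 10.62, 12.55, 13.65 and 11.56 in tumors, against 6.38, 6.33, 6.33, 7.04 and 6.99 in glands (difference 5.51, SE 0.51, limma adjusted p = 0.000466). The tumors spread widely in Car12, while Cd44 was high in every tumor. A second Cd44 probe set was also higher, by 5.13.

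Plod2, which hydroxylates lysines in collagen so that fibres can be cross-linked, was at 8.76, 6.20, 11.67, 12.58 and 9.94 in tumors 1 to 5, against 3.15, 3.47, 4.91, 4.82 and 5.40 in glands (difference 5.48, limma adjusted p = 0.0121). Ptgs2, the inducible cyclooxygenase, was at 7.61, 5.91, 8.81, 11.71 and 8.13 in tumors, against 5.63, 2.49, 2.41, 2.39 and 2.33 in glands (difference 5.39, limma adjusted p = 0.0109). Tumors 3 and 4 had the highest levels of both genes and tumor 2 the lowest. A second Ptgs2 probe set differed by 2.92 and did not pass the test. The other 5 of the 10 genes chosen by that rule were the secreted matrix protein gene Olfml3 (5.45), the secreted protease inhibitor-like gene Wfdc2 (5.36), the membrane-associated gene Basp1 (5.26), the annexin gene Anxa8 (5.22) and the LIM domain gene Pdlim4 (5.20), with limma adjusted p values of 0.00331, 0.00514, 0.00152, 0.00545 and 0.00368 in that order. The rule left out called genes with overlap. One was BC018473, with a larger difference than Car12 (6.27, limma adjusted p = 0.0477) and with tumor 5 (2.13) level with the glands.

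Among called genes with all tumors below all glands, the largest decreases were in secretory products of the pregnant gland. Glycam1, a mucin-like glycoprotein of milk, was at 3.54, 6.05, 2.35, 2.35 and 2.54 in tumors 1 to 5, against 15.66, 15.65, 15.51, 15.90 and 15.86 in glands (difference −12.35, SE 0.65, limma adjusted p = 6.66e-06). Cel, the bile salt-stimulated lipase of milk, was at 4.25, 2.10, 2.06, 2.07 and 2.12 in tumors, against 11.92 to 13.42 in glands (difference −9.95, SE 0.49, limma adjusted p = 4.55e-06). Both were at or near the floor in tumors 3, 4 and 5, so the fold change depends on that floor. Lao1, an amino acid oxidase found in mouse milk, was at 3.63 to 5.63 in tumors and 13.36 to 15.15 in glands (difference −10.05, limma adjusted p = 1.76e-06).

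Olah, the thioesterase that ends fatty acid synthesis early and so gives milk its medium-chain fatty acids, was at 2.39, 2.78, 2.43, 3.06 and 3.07 in tumors 1 to 5, against 9.68 to 12.58 in glands (difference −8.59, limma adjusted p = 7.42e-06). Chrdl2, a secreted chordin-like protein, was at 2.05 to 2.14 in tumors and 9.46 to 11.36 in glands (difference −8.27, limma adjusted p = 1.76e-06). In contrast to these genes, which were low in every tumor, 3 of the 10 most decreased genes without overlap kept a high level in tumor 2. Fabp3, a fatty acid carrier, was at 12.25 in tumor 2 and at 2.35 to 3.23 in the other 4 tumors, against 14.13 to 14.97 in glands (difference −10.02, SE 1.72, limma adjusted p = 0.00803).

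**Figure D1:**
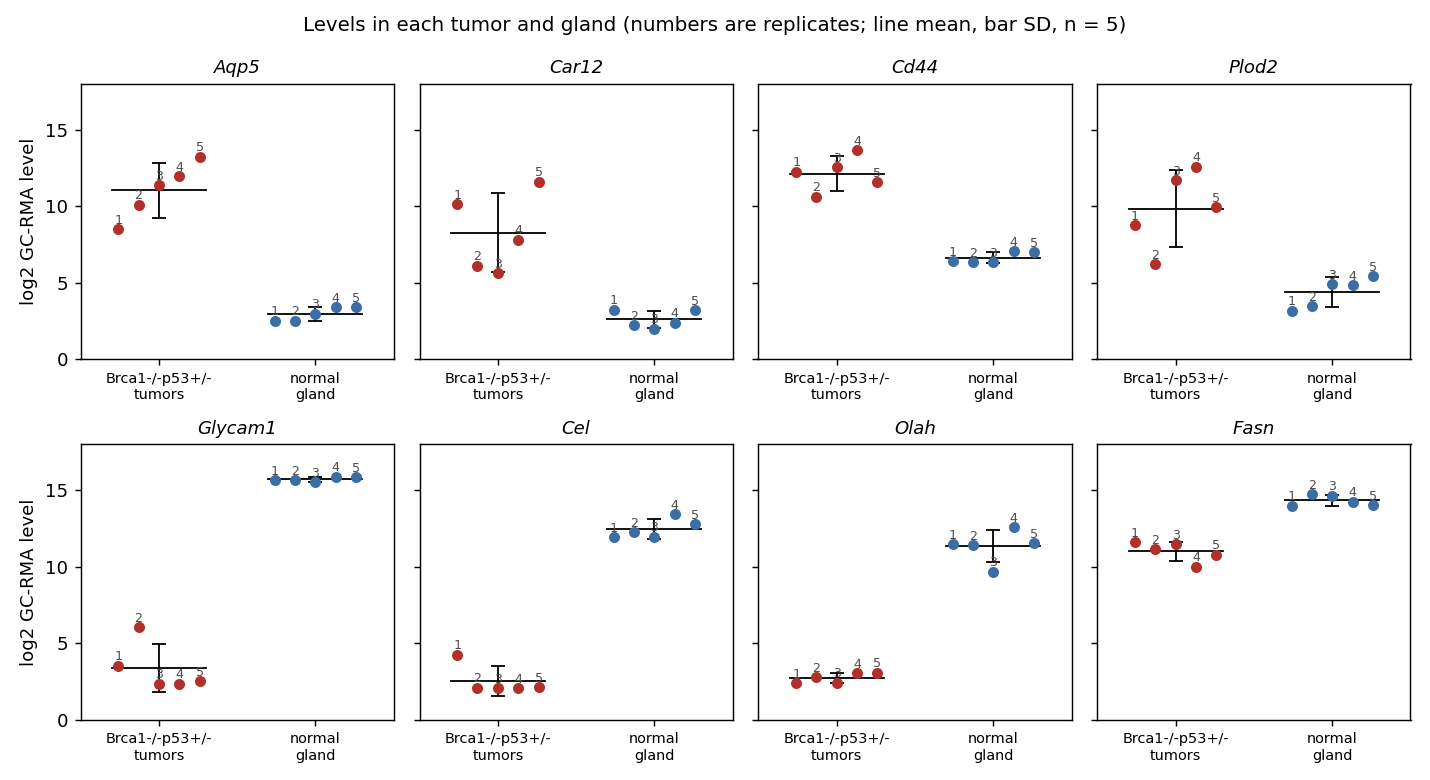
Log2 level of 4 genes that were higher in tumors (Aqp5, Car12, Cd44, Plod2) and 4 that were lower (Glycam1, Cel, Olah, Fasn), with 1 numbered point for each array, tumors left of glands, and the mean with its SD as a bar (n = 5 each). In all 8 genes the tumor points do not overlap the gland points, which for all but Fasn was a condition of their choice. The 5 tumors spread from 8.48 to 13.22 in Aqp5 while Fasn keeps a level of 10.01 to 11.59 in tumors, against 13.99 to 14.76 in glands.

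Across gene lists each tumor had its own profile, which the mean level of a list on each array makes visible. For milk protein genes the mean level was 7.83, 10.03, 4.56, 3.44 and 5.35 in tumors 1 to 5, against 12.75 to 14.37 in the glands. For mitosis genes it was 7.57, 4.35, 9.96, 8.97 and 8.74 in tumors, against 4.88 to 6.03 in glands. For epithelial junction genes it was 9.64, 6.52, 4.14, 3.81 and 9.81 in tumors, against 8.27 to 9.74 in glands. Tumors 3 and 4 were thus high in mitosis genes and low in junction genes, tumors 1 and 5 high in both, and tumor 2 low in mitosis genes and highest in milk protein genes.

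**Figure D2:**
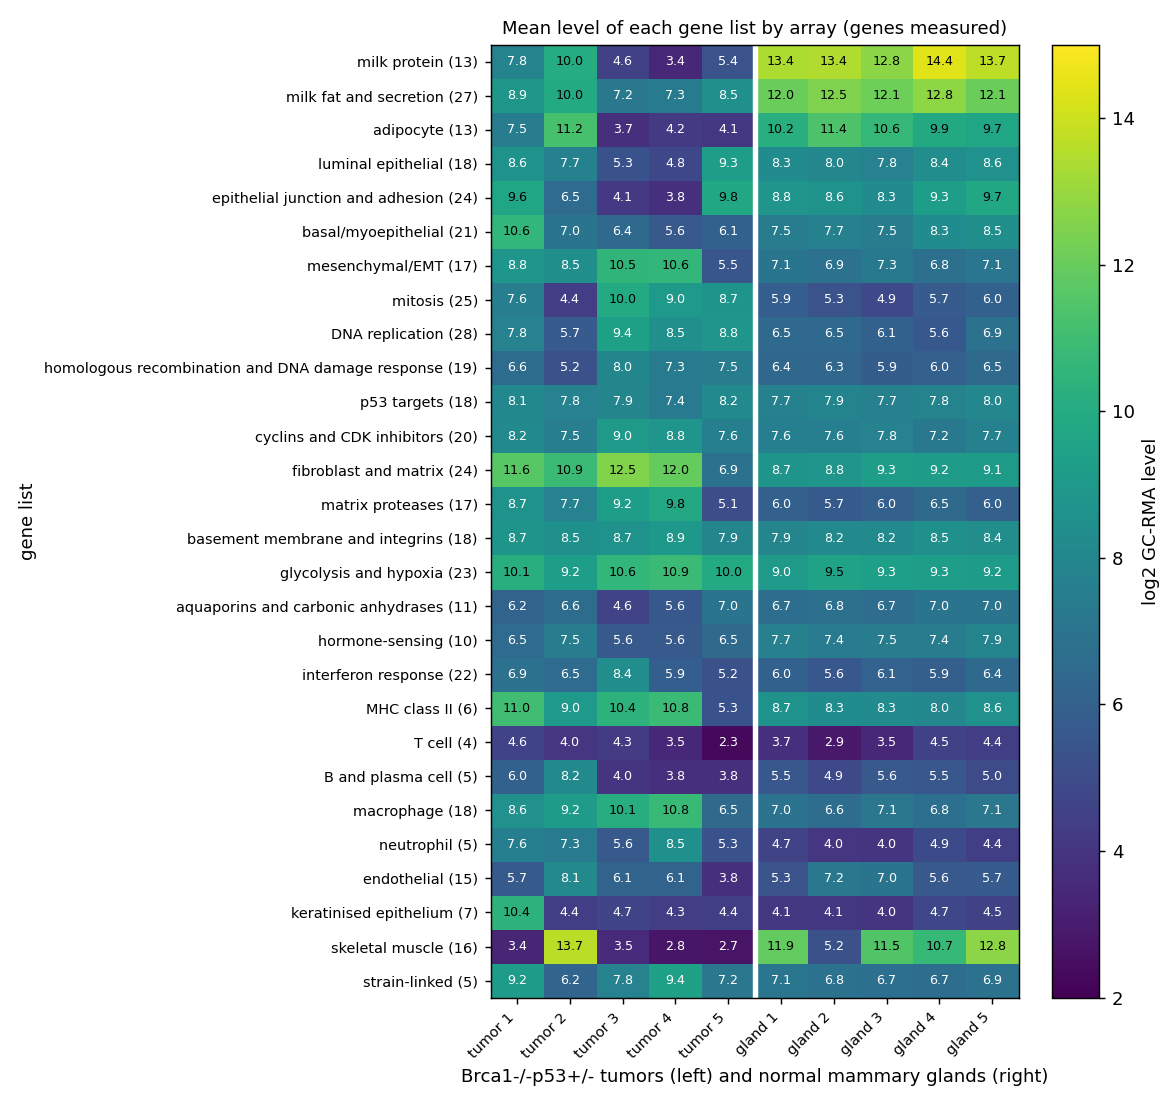
Mean log2 level of each gene list on each array, the 5 Brca1-/-p53+/- tumors on the left and the 5 glands on the right, on 1 colour scale for all lists, with the number of genes tested in brackets. Milk protein, milk fat and mitosis genes set most tumors apart from the glands, whereas junction, matrix and muscle genes differ more among the tumors (matrix 6.90 in tumor 5 and 10.9 to 12.5 in the others) than between the groups.

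Milk protein genes were lower in tumors. Of the 13 tested, 9 were lower and 0 higher, with a median difference of −7.32. Without tumor 2 all 13 were lower, without tumor 5 the number was 8, and without gland 2 or gland 5 it was 7. Glycam1 and Cel, given above, belong to this list. Wap, the whey acidic protein of rodent milk, was at 3.57, 12.31, 3.14, 3.41 and 8.56 in tumors 1 to 5, against 15.48 to 15.66 in glands (difference −9.37, limma adjusted p = 0.00832). Lalba, the subunit that directs galactosyltransferase to lactose synthesis, was at 2.52, 11.75, 2.09, 2.11 and 2.14 in tumors, against 13.07 to 14.80 in glands (difference −9.62, limma adjusted p = 0.00894). Wap and Lalba were near the floor in tumors 3 and 4 and within about 3 log2 units of the glands in tumor 2.

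The caseins split the tumors in another way. Csn2, beta-casein, was at 13.74, 14.48, 7.55, 2.28 and 2.37 in tumors 1 to 5, against 15.47, 15.50, 15.33, 15.36 and 15.21 in glands (difference −7.29, SE 2.35, limma adjusted p = 0.0631). All tumors were below all glands, but tumors 1 and 2 by less than 2 log2 units and tumors 4 and 5 by more than 12. Without tumor 2 the difference was −8.89 and passed the test (limma adjusted p = 0.0182), and a second Csn2 probe set differed by −7.77 and passed it with all 5 tumors. Csn1s1, alpha-casein, was at 13.94, 14.22, 6.94, 2.66 and 2.91 in tumors, against 15.32 to 15.56 in glands (difference −7.32, limma adjusted p = 0.0558). Csn3, kappa-casein, which keeps casein micelles in solution, was at 12.42, 14.13, 8.35, 5.89 and 11.30 in tumors, against 15.31 to 15.60 in glands (difference −5.03, limma adjusted p = 0.033). The call of Csn3 was lost in 6 of the 10 fits that left out 1 array, with an adjusted p of up to 0.0762. Muc1, the apical membrane mucin, was lower as well, at 3.20 to 5.63 in tumors and 8.23 to 11.82 in glands (difference −5.51, limma adjusted p = 0.0026).

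The promoters of 3 of these genes are shown because all hold the palindrome TTCNNNGAA, the core of the sites that STAT factors bind, searched on both strands (the palindrome reads the same on each). Each window runs 250 bases before to 50 after the start of the gene in the RefSeq annotation of GRCm38.p6, 5′ to 3′ on the strand of the gene, with the match in capitals. The windows are chr5:87699376-87699675 (minus strand) for Csn2, chr5:87665958-87666257 (plus strand) for Csn1s1 and chr15:103565032-103565331 (minus strand) for Glycam1. The first base of the match lies at −93 in Csn2, −100 in Csn1s1 and −145 in Glycam1, counted from the start.
Csn2: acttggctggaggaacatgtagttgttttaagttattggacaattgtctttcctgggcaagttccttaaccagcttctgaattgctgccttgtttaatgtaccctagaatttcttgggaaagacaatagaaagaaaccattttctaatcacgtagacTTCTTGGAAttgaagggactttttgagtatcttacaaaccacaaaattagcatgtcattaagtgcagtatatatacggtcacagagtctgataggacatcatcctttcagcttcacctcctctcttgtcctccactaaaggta
Csn1s1: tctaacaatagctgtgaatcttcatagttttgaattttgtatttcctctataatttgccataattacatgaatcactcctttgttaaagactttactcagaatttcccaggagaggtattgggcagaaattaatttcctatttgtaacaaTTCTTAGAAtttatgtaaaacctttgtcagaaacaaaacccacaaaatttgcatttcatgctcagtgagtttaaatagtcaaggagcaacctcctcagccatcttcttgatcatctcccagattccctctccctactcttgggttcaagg
Glycam1: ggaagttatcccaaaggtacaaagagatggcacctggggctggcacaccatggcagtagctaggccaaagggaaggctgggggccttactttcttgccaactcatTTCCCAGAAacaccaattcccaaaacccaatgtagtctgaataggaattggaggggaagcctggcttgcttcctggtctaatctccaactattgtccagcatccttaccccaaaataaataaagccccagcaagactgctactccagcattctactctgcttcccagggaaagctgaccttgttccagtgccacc
The letters were found in 4 of 11 windows of the milk protein list (36.4%), the fourth being that of Csn1s2a, and in 2726 of 32851 windows of all genes (8.3%). In the milk fat list 1 of 22 windows held them. A match describes the letters only and is no evidence of binding.

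STAT5 itself was lower. Stat5a, the prolactin-activated factor of the gland, was at 7.06, 8.73, 6.12, 6.23 and 8.61 in tumors 1 to 5, against 10.34, 11.66, 11.22, 11.24 and 11.18 in glands (difference −3.78, SE 0.56, limma adjusted p = 0.00446). Cish, a feedback inhibitor that STAT5 switches on, was at 8.07, 8.97, 5.70, 6.11 and 7.93 in tumors, against 10.59 to 11.35 in glands (difference −3.54, limma adjusted p = 0.00757). In both genes tumors 3 and 4 had the lowest and tumor 2 the highest level, and no tumor reached the glands. Stat5b was lower by less (−1.59, limma adjusted p = 0.0141), and its second probe set did not pass the test. Elf5, a factor of alveolar luminal cells, was at 11.43, 10.35, 2.17, 2.45 and 12.73 in tumors, against 12.66 to 13.68 in glands (difference −5.39, limma adjusted p = 0.0992): tumors 3 and 4 were at the floor, while tumor 5 was level with the glands. Stat5a, Stat5b and Cish were the 3 lower of 10 hormone-sensing genes, and Stat5a and Stat5b the 2 lower of 18 luminal epithelial genes, with 0 higher in either list and median differences of −0.78 and −0.76. The lower luminal genes numbered 4 without tumor 5. Of all genes 7.47% were lower with all arrays and 10.5% without tumor 5.

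Genes of milk fat synthesis and secretion were lower with fewer exceptions among the tumors. Of 27 tested, 20 were lower and 1 higher, with a median difference of −3.26. Without tumor 2 the numbers were the same, and without gland 2 and gland 5 the lower genes numbered 12 and 15. Fasn, fatty acid synthase, was at 11.59, 11.15, 11.48, 10.01 and 10.79 in tumors 1 to 5, against 13.99, 14.76, 14.65, 14.25 and 14.03 in glands (difference −3.33, SE 0.34, limma adjusted p = 0.000808). The 5 tumors lay within 2 log2 units of each other, in contrast to the caseins. Acaca, the carboxylase that makes malonyl-CoA for Fasn, was at 2.10 to 2.19 in tumors, against 6.22, 8.99, 6.54, 8.13 and 4.09 in glands (difference −4.65, limma adjusted p = 0.00695). Xdh, which binds butyrophilin at the surface of the milk fat globule, was at 9.24, 9.28, 7.23, 8.84 and 9.88 in tumors, against 11.59 to 13.47 in glands (difference −3.72, limma adjusted p = 0.00367). Btn1a1, butyrophilin, was at 8.13, 10.81, 2.56, 2.59 and 6.38 in tumors, against 12.12 to 14.12 in glands (difference −6.88, limma adjusted p = 0.016), with tumors 3 and 4 again near the floor. Plin2, which coats lipid droplets, stayed high, at 11.89 to 13.75 in tumors, against 14.15 to 14.50 in glands (difference −1.52, limma adjusted p = 0.0189). The milk fat genes thus ranged between a small decrease and near silence in the same tumors. Cidea, a lipid droplet protein, was at 8.55, 6.92, 2.14, 2.40 and 3.44 in tumors, against 12.10 to 14.37 in glands (difference −8.98, limma adjusted p = 0.00306). The 1 higher gene was Scd2, a stearoyl-CoA desaturase, at 11.11 to 13.52 in tumors and 9.47 to 10.88 in glands (difference 2.12, limma adjusted p = 0.0171), though the 2 other Scd2 probe sets differed by 1.30 and 1.41 and did not pass.

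Adipocyte genes were high in all the glands and high or intermediate in tumors 1 and 2 only. Of 13 adipocyte genes tested, 0 were higher and 1 was lower, with a median difference of −3.99, and the lower genes numbered 11 without tumor 2, 2 without tumor 5 or gland 5, and 0 without gland 2. The lower share of all genes was 7.47% with all arrays and 10.2% without tumor 2. Adipoq, the adipocyte hormone adiponectin, was at 11.81, 14.22, 2.17, 2.70 and 2.49 in tumors 1 to 5, against 13.22 to 14.35 in glands (difference −7.18, limma adjusted p = 0.0653, and −9.06 with 0.00985 without tumor 2). Lipe, the hormone-sensitive lipase, was the gene that passed, at 5.21, 10.09, 2.16, 2.16 and 2.22 in tumors, against 9.23 to 12.22 in glands (difference −6.43, limma adjusted p = 0.0207, lost in 4 of the 10 fits without 1 array). Tumors 3, 4 and 5 had almost no adipocyte signal, tumor 1 had some, and tumor 2 as much as the glands. Fabp3, Cidea and several genes of the milk fat list are also used by adipocytes, and how far fat tissue contributed to their difference was not tested.

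The mean level of the 16 skeletal muscle genes was 3.42, 13.66, 3.52, 2.80 and 2.66 in tumors 1 to 5, against 11.88, 5.22, 11.47, 10.72 and 12.77 in glands 1 to 5. Muscle RNA was thus high in tumor 2 and in all glands but gland 2. With all arrays 0 of 16 passed the test in either direction, and without tumor 2 the lower genes numbered 15. Acta1, skeletal alpha-actin, was at 15.14 in tumor 2, the highest of the 10 arrays, and at 3.49 to 7.05 in the other tumors, against 9.98 in gland 2 and 13.31 to 14.24 in the other glands.

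Keratins of the 2 epithelial layers did not separate tumors from glands. Krt8 and Krt18, the keratin pair of luminal cells, were at 12.79, 11.83, 13.63, 10.49 and 13.77 (Krt8) and at 12.47, 12.07, 13.46, 7.83 and 13.62 (Krt18) in tumors 1 to 5, against 11.54 to 12.98 and 11.48 to 12.43 in the glands. The differences were 0.42 (limma adjusted p = 0.665) and −0.15 (0.932), and only tumor 4 was clearly below the glands in Krt18. Krt5 and Krt14, the keratin pair of basal cells, were at 13.02, 7.03, 3.97, 2.97 and 6.23 (Krt5) and at 13.97, 8.37, 7.90, 6.24 and 9.73 (Krt14) in tumors, against 8.31 to 9.52 and 8.87 to 10.55 in glands. The differences of −2.33 (limma adjusted p = 0.33) and −0.20 (0.928) hide a wide spread: tumor 1 was above every gland, and tumors 2, 3 and 4 below every gland, in both genes. High levels of both basal keratins were seen in tumor 1 alone.

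Tumor 1 was set apart by further basal genes. Trp63, the basal cell transcription factor p63, was at 11.39 in tumor 1 and at 6.46, 2.28, 2.71 and 2.46 in tumors 2 to 5, against 3.87 to 8.15 in glands. Krt6a, a keratin of stressed and progenitor-like epithelium, was at 12.63 in tumor 1 and at most 4.83 in the others. The mean level of the basal/myoepithelial list was 10.6 in tumor 1 and 5.63 to 6.98 in tumors 2 to 5, against 7.46 to 8.47 in glands. Over all tumors 1 of the 21 genes was higher and 3 were lower, where 6.85% and 7.47% of all genes were. The higher genes of the list numbered 2 without tumor 2 and 0 without gland 2 or gland 5. The 3 lower genes are contractile genes of myoepithelium and smooth muscle. Cnn1, calponin, was at 2.04, 4.34, 2.03, 2.04 and 2.05 in tumors, against 6.96 to 9.56 in glands (difference −5.70, limma adjusted p = 0.00148), Myh11 differed by −5.27 (0.01) and Mylk by −3.26 (0.0109). The higher one was Itgb4, the integrin of hemidesmosomes, at 11.51, 6.39, 7.60, 8.55 and 6.07 in tumors and 4.05 to 5.16 in glands (difference 3.45, limma adjusted p = 0.0329, lost in 7 of the 10 fits without 1 array).

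Junction genes of epithelium were low in tumors 3 and 4, intermediate in tumor 2 and near gland levels in tumors 1 and 5. Epcam, an adhesion molecule of epithelial cells, was at 12.58, 10.55, 5.28, 2.99 and 13.50 in tumors 1 to 5, against 11.52 to 12.60 in glands (difference −3.04, limma adjusted p = 0.277). Cldn7, a tight junction claudin, was at 9.87, 3.68, 2.20, 2.99 and 11.52 in tumors, against 10.17 to 11.52 in glands (difference −4.94, limma adjusted p = 0.0804). Cdh1, E-cadherin, was at 12.30, 10.65, 6.54, 5.99 and 12.52 in tumors, against 10.93 to 12.12 in glands. In each gene tumors 3 and 4 were far below every gland, and tumors 1 and 5 were at or near gland level. The same held for Cldn3 (11.31, 7.07, 2.12, 2.64 and 12.37 in tumors, 10.62 to 11.76 in glands) and for the splicing regulator Esrp1 (12.07, 8.86, 2.26, 2.61 and 10.97 in tumors).

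Of 24 junction and adhesion genes tested, 4 were lower and 0 higher, with a median difference of −2.53. Without tumor 5 the lower genes numbered 10. The lower share of all genes was 7.47% with all arrays and 10.5% without tumor 5. Cldn8, a claudin that seals sodium-absorbing epithelia, was at 8.09, 3.71, 2.23, 2.29 and 9.29 in tumors, against 10.77 to 12.99 in glands (difference −6.64, SE 1.38, limma adjusted p = 0.0145). Tjp1, the scaffold ZO-1, was at 10.01, 9.82, 9.81, 9.99 and 9.89 in tumors, against 10.84 to 11.12 in glands, a small difference of −1.05 with little spread (SE 0.19, limma adjusted p = 0.0093). The others were Prss8 (−4.82, limma adjusted p = 0.0279) and Tjp3 (−4.28, 0.0218). The Prss8 call was lost in 7 of the 10 fits without 1 array, and that of Tjp3 in 1, without gland 1, with an adjusted p of 0.0522. Dsp, the desmosomal protein desmoplakin, was above every gland in tumors 1 and 5, at 14.24, 7.97, 2.59, 2.53 and 12.50 in tumors 1 to 5, against 6.28 to 8.57 in glands.

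Many of these genes hold the E-box CAGGTG, the letters bound by Snail and Zeb repressors, in their promoters. The windows of 3 genes that were below every gland in tumors 3 and 4 are shown, from RefSeq on GRCm38.p6 as before, with CAGGTG or its reverse complement CACCTG in capitals. They are chr11:69965171-69965470 (plus strand, the second of 2 windows of the gene) for Cldn7, chr17:87635729-87636028 (plus strand) for Epcam and chr3:88548230-88548529 (minus strand) for Rab25. Each holds 2 matches, which start at −97 and −57 in Cldn7, −187 and −19 in Epcam and −64 and −53 in Rab25. The other window of Cldn7, chr11:69964529-69964828, held 0 matches and is not shown.
Cldn7: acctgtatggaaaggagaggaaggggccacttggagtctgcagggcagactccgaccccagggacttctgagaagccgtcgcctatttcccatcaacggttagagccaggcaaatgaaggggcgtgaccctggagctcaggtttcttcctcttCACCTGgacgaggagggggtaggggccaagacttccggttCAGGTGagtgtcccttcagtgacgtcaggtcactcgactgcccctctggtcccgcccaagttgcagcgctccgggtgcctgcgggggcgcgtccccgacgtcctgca
Epcam: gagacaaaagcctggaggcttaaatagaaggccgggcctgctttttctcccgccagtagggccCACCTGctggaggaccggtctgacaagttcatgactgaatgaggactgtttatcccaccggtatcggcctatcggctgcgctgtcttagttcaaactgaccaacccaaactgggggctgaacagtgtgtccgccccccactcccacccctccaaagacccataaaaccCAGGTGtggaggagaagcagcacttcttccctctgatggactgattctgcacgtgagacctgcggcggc
Rab25: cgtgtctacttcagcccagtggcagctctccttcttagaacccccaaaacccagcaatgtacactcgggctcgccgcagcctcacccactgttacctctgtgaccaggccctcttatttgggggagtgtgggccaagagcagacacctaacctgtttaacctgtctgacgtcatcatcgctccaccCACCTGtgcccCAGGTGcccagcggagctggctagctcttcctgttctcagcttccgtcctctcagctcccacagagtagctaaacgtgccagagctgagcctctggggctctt
Of the 15 windows found for the junction list, 11 held the letters (73.3%), which belonged to 9 of 12 genes, and so did 6640 of 32851 windows of all genes (20.2%). The list was chosen by function and not by sequence, and a match shows no binding.

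The mean level of the mesenchymal genes was 8.84, 8.49, 10.48, 10.62 and 5.46 in tumors 1 to 5, against 6.79 to 7.27 in glands. It was highest in tumors 3 and 4, where junction genes were lowest, but tumor 1 kept junction genes and was above the glands too. Members of the list differed: Snai2 (−0.90), Cdh2 (0.18) and Cdh11 (0.44) were not called, and those given next are higher ones. Snai1, the Snail repressor, was at 2.44, 2.31, 7.88, 9.32 and 2.33 in tumors 1 to 5, against 2.19 to 2.83 in glands. Twist1, another such factor, was at 5.68, 6.11, 9.95, 9.85 and 2.45 in tumors, against 5.26 to 5.77 in glands. Both were above the glands in tumors 3 and 4, and Snai1 was at the floor on every other array. Zeb1 was at 7.40, 9.84, 11.05, 11.13 and 6.56 in tumors, against 6.97 to 9.36 in glands, so that tumor 2 was also above the glands. S100a4, a calcium-binding protein of motile cells and fibroblasts, was at 10.45, 11.08, 13.79, 15.03 and 6.24 in tumors, against 6.16 to 7.70 in glands (difference 4.38, limma adjusted p = 0.0609).

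Of 17 mesenchymal genes tested 1 was higher and 0 lower, with a median difference of 1.60, where 6.85% of all genes were higher. The higher genes numbered 2 without tumor 2, 8 without tumor 5 and 12 without both, against 11.2%, 11.4% and 17.5% of all genes. The 1 gene was Fn1, fibronectin, at 13.88, 11.80, 14.59, 14.84 and 11.41 in tumors 1 to 5, against 9.97, 7.97, 9.69, 9.17 and 9.19 in glands (difference 4.10, SE 0.72, limma adjusted p = 0.00862). Even tumor 5 was above every gland in Fn1, though a second probe set of the gene differed by 2.79 and did not pass. Vim, vimentin, was high on all arrays, at 12.78 to 14.35 in tumors and 12.12 to 13.05 in glands (difference 0.86, limma adjusted p = 0.124).

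**Figure D3:**
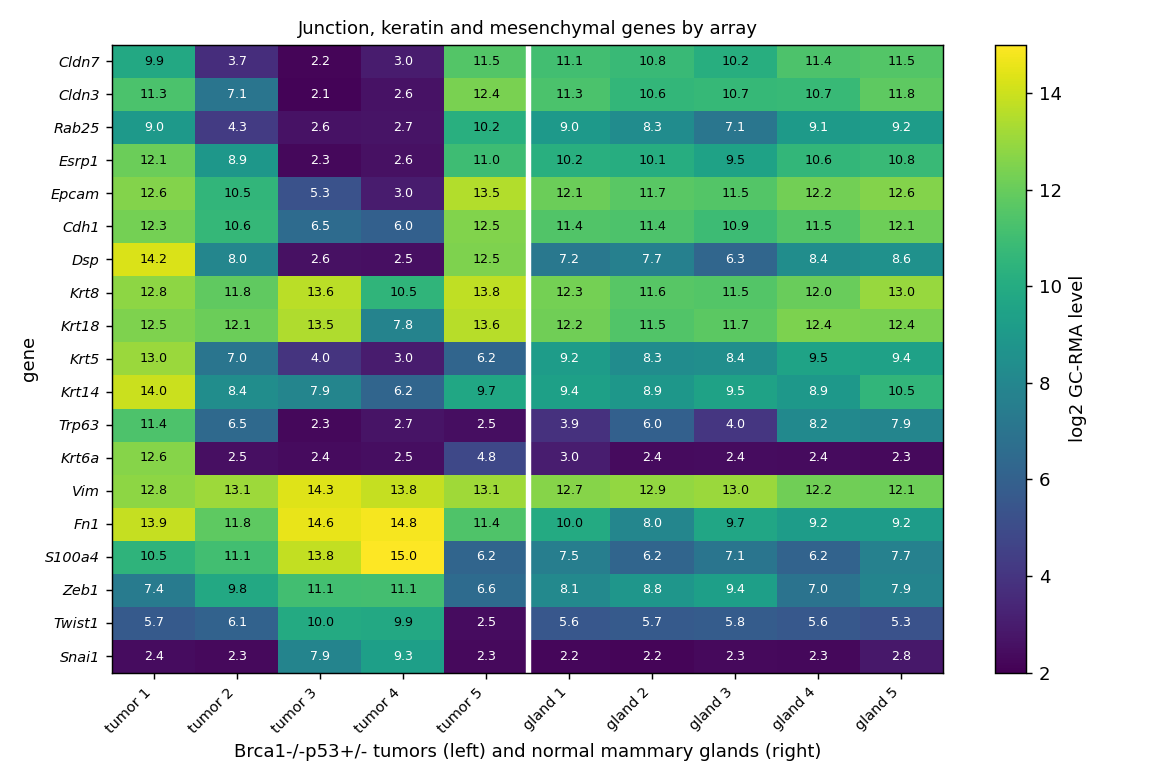
Log2 levels of luminal, basal, junction and mesenchymal genes on each array, tumors 1 to 5 on the left and glands 1 to 5 on the right. Tumors 3 and 4 combine low junction genes (Cldn7 2.20 and 2.99) with high Snai1 (7.88 and 9.32), tumor 1 has high basal keratins (Krt5 13.02), and tumor 5 keeps junction genes (Cldn7 11.52) with low mesenchymal genes (Twist1 2.45).

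Matrix genes were high in 4 tumors and low in tumor 5. The mean level of 24 fibroblast and matrix genes was 11.63, 10.86, 12.54, 11.95 and 6.90 in tumors 1 to 5, against 8.74 to 9.27 in glands. With all tumors 4 genes were higher and 0 lower (median difference 1.75), and without tumor 5 the higher genes numbered 18. The shares of all genes that were higher were 6.85% and 11.4%. Besides Fn1 the 4 matrix genes higher with all tumors were Fbln2, a fibulin of elastic fibres (3.71, limma adjusted p = 0.0146), Thbs1 (3.15, 0.012) and Thbs2 (3.13, 0.0278, lost in 6 of the 10 fits without 1 array), both thrombospondins. Col1a1, the main chain of type I collagen, was at 14.17, 12.30, 14.71, 12.24 and 8.26 in tumors, against 9.48 to 10.78 in glands. Its difference was 2.23 (limma adjusted p = 0.166) with tumor 5 and 3.25 (0.00538) without. Dcn, decorin of fibroblasts, was at 3.84 in tumor 5 and 11.96 to 14.25 in the other 4 tumors, against 11.54 to 12.63 in glands. Tumor 5 was below every gland in Col1a1, Dcn and the list mean, and tumors 2, 3 and 4 were above every gland in both genes. Not all collagens followed, since Col3a1 of type III collagen differed by 0.11 (limma adjusted p = 0.934).

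The mean level of matrix protease genes followed the same tumors, at 8.70, 7.74, 9.24, 9.83 and 5.06 in tumors 1 to 5, against 5.70 to 6.52 in glands. Single members did not all follow: Mmp13 was within the gland range in tumor 2, and Plau (−0.11) and Adamts5 (−2.92) were not higher. Mmp14, the membrane-bound collagenase, was at 11.18, 10.98, 12.69, 12.43 and 8.83 in tumors 1 to 5, against 7.34 to 7.95 in glands (difference 3.46, limma adjusted p = 0.00989). All 5 tumors were above all glands, although another Mmp14 probe set with a difference of 3.46 did not pass. Mmp11, a stromal protease, was at 7.22, 7.34, 6.24, 5.34 and 2.67 in tumors, against 2.65 to 2.80 in glands (difference 3.06, limma adjusted p = 0.0303, lost in 8 of the 10 fits without 1 array). Mmp13, collagenase 3, was at 10.78, 2.96, 11.92, 11.40 and 5.70 in tumors, against 2.73 to 4.49 in glands (difference 5.04, limma adjusted p = 0.0619, and 6.44 with 0.00623 without tumor 2). Of 17 protease and inhibitor genes 2 were higher and 0 lower (median difference 2.08), 10 were higher without tumor 5, 6 without tumor 2 and 1 without gland 2 or gland 5. Among 18 basement membrane and integrin genes 0 were higher and 1 was lower, the laminin chain Lama1 (−2.94, limma adjusted p = 0.0446, lost in 7 of the 10 fits without 1 array). The higher genes of this list numbered 2 without tumor 2 and 4 without tumor 5, and the lower ones 0 without gland 2 or gland 5. With all arrays 6.85% of all genes were higher and 7.47% lower, so 1 lower gene of 18 does not set the list apart.

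The engineered gene, Brca1, was higher in the tumors by 1 of its 3 probe sets. The level of that probe set was 7.30, 5.71, 8.69, 7.44 and 7.68 in tumors 1 to 5, against 5.20, 2.99, 2.67, 2.62 and 3.94 in glands (difference 3.88, SE 0.63, limma adjusted p = 0.00641). All tumors were above all glands. The 2 other Brca1 probe sets differed by 0.55 and 0.26 and did not pass the test. Where the probes lie relative to the deleted exons was not given in the sources used here, so these levels do not check the label.

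Cell cycle genes separated tumor 2 from the other 4 tumors. Top2a, topoisomerase II of dividing cells, was at 9.68, 2.52, 12.47, 11.18 and 10.63 in tumors 1 to 5, against 6.59, 6.24, 4.91, 6.28 and 6.52 in glands (difference 3.19, limma adjusted p = 0.193, and 4.88 with 0.00108 without tumor 2). Cenpf, a kinetochore protein, was at 7.61, 4.56, 9.82, 9.15 and 9.25 in tumors, against 2.76, 4.03, 4.55, 5.94 and 5.43 in glands (difference 3.54, limma adjusted p = 0.0411). Tumor 2 was below every gland in Top2a and within the gland range in Cenpf, and the other 4 tumors were above every gland in both. Bub1, a spindle checkpoint kinase, was at 7.32, 5.25, 10.12, 9.28 and 8.82 in tumors, against 4.81, 4.90, 3.92, 3.92 and 4.60 in glands (difference 3.73, SE 0.80, limma adjusted p = 0.0169). A second Bub1 probe set differed by 0.48 and did not pass.

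Of 25 mitosis genes tested 4 were higher and 0 lower, with a median difference of 2.20. Without tumor 2, the tumor with the most muscle and adipocyte signal, 22 of 25 were higher, against 11.2% of all genes. Without tumor 5, gland 2 or gland 5 only 1 was higher. The other 2 genes called with all arrays were Prc1, a midzone protein (2.20, limma adjusted p = 0.047), and the kinase gene Melk (2.20, 0.0488). The calls of Cenpf, Prc1 and Melk were each lost in 9 of the 10 fits without 1 array, Cenpf with an adjusted p of up to 0.0941. Mki67, the proliferation antigen Ki-67, was at 11.13, 8.44, 11.30, 10.67 and 10.48 in tumors, against 9.51, 8.35, 7.40, 10.78 and 9.22 in glands (difference 1.35, limma adjusted p = 0.209), and the glands, whose epithelium still grows in late pregnancy, overlapped the tumors.

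A pair of the mitosis promoters is shown for the letters TTTGAA, the cell cycle homology region through which the DREAM and MuvB complexes time late cell cycle genes. The windows are chr1:189688037-189688336 (minus strand) for Cenpf and chr11:99024140-99024439 (minus strand) for Top2a, with TTTGAA or its reverse complement TTCAAA in capitals. Matches start at 3 in Cenpf, and at −179 and −23 in Top2a.
Cenpf: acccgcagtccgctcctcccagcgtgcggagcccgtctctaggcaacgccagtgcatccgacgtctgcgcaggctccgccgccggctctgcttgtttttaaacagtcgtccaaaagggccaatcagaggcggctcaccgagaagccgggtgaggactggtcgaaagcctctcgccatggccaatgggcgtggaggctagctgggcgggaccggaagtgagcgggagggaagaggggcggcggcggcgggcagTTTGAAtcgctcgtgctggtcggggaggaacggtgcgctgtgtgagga
Top2a: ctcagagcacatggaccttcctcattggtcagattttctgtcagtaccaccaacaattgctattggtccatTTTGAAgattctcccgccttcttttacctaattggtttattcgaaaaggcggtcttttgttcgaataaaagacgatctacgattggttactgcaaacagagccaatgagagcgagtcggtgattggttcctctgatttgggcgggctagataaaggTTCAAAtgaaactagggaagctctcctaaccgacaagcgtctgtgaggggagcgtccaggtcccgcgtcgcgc
The letters were in 15 of 21 windows of the mitosis list (71.4%), from 14 of 20 genes with a window, and in 5878 of 32851 windows of all genes (17.9%).

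Replication genes gave more calls than mitosis genes with all arrays, 6 higher and 0 lower of 28 (median difference 1.88), 21 higher without tumor 2 and 4 without gland 2 or gland 5. Rfc3, a subunit of the clamp loader, was at 6.86, 6.99, 9.21, 8.38 and 8.35 in tumors 1 to 5, against 4.31 to 5.70 in glands (difference 2.80, limma adjusted p = 0.00862). Mcm7, a subunit of the replicative helicase, was at 12.41, 9.98, 12.54, 11.71 and 11.88 in tumors, against 9.84, 9.24, 9.23, 8.34 and 9.62 in glands (difference 2.45, limma adjusted p = 0.0137). In both genes even tumor 2 was above every gland. The other 4 act at replication origins: Orc6 (2.65, limma adjusted p = 0.00924), Cdc6 (2.48, 0.0235), Cdt1 (1.72, 0.00803) and Cdc7 (2.27, 0.047). The Cdc6 call was lost in 4 and the Cdc7 call in 7 of the 10 fits without 1 array, and 1 further probe set each of Mcm7, Cdt1 and Cdc7 did not pass, that of Cdc7 with a difference of 0.23.

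Among 19 homologous recombination and damage response genes, Brca1 was the 1 higher gene and 0 were lower (median difference 0.51). Without tumor 2 the higher genes numbered 5. Of all genes 6.85% were higher with all arrays and 11.2% without tumor 2. Atm, the kinase that signals double-strand breaks, was at 6.29, 3.37, 8.14, 6.83 and 7.27 in tumors 1 to 5, against 6.73 to 8.11 in glands, so that only tumor 2 was far below the glands.

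**Figure D4:**
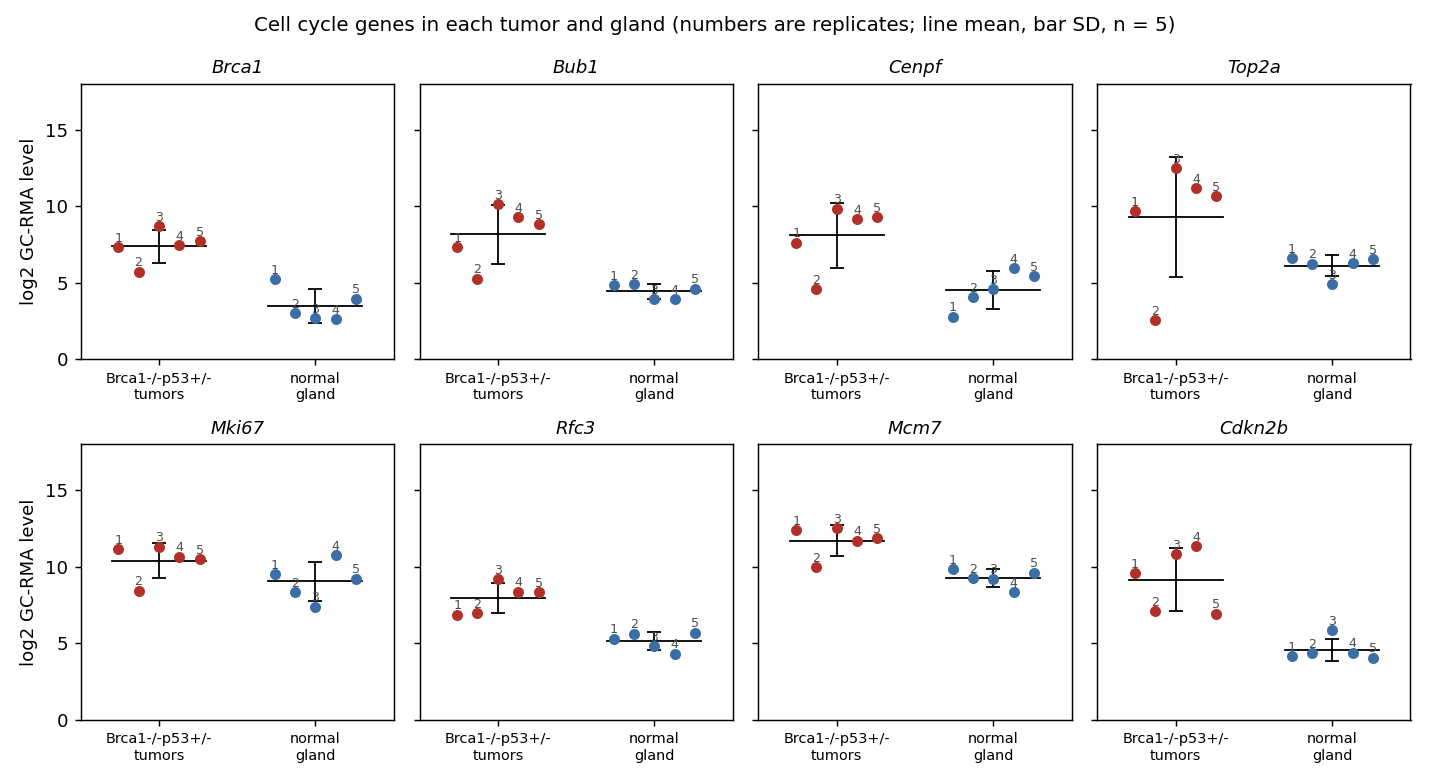
Log2 levels of Brca1, Bub1, Cenpf, Top2a, Mki67, Rfc3, Mcm7 and Cdkn2b, with 1 numbered point for each array, tumors left of glands, and the mean with its SD as a bar (n = 5 each). Tumor 2 is the lowest tumor in Brca1 (5.71), Bub1 (5.25), Cenpf (4.56), Top2a (2.52), Mki67 (8.44) and Mcm7 (9.98), and all 5 tumors lie above all glands in Brca1, Bub1, Rfc3, Mcm7 and Cdkn2b.

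Cell cycle inhibitors did not move as a group. Cdkn2b, the inhibitor p15 of CDK4 and CDK6, was at 9.58, 7.08, 10.82, 11.37 and 6.93 in tumors 1 to 5, against 4.15, 4.35, 5.88, 4.39 and 4.06 in glands (difference 4.59, SE 0.89, limma adjusted p = 0.0112). Cdkn1c, the inhibitor p57, was at 3.93, 4.24, 4.30, 4.51 and 3.96 in tumors, against 5.27 to 7.41 in glands (difference −2.14, limma adjusted p = 0.00845). The first was above and the second below the glands in all 5 tumors. Cdkn2a, which encodes p16 and ARF, was at 4.19, 2.40, 8.70, 7.10 and 2.37 in tumors, against 2.20 to 2.54 in glands, with its highest levels in tumors 3 and 4. Of 20 cyclin and inhibitor genes 2 were higher and 1 was lower, and without tumor 2 there were 4 higher and 3 lower. Over all genes the shares were 6.85% and 7.47%, and 11.2% and 10.2% without tumor 2. The second higher gene was Cdk2 (1.69, limma adjusted p = 0.029), a call lost in 4 of the 10 fits without 1 array.

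Targets of p53 gave 2 higher and 0 lower of 18 genes (median difference −0.22), Pmaip1, the death-inducing protein NOXA (1.99, limma adjusted p = 0.0428), and Gadd45a, a stress response gene (2.35, 0.0419). Their calls were lost in 7 and 9 of the 10 fits without 1 array. The counts became 1 higher and 1 lower without tumor 2, 2 higher and 2 lower without tumor 5, 0 and 0 without gland 2, and 1 and 0 without gland 5. With all arrays 6.85% of all genes were higher and 7.47% lower, so counts this small do not set the list apart from other genes. Cdkn1a, the p53-induced inhibitor p21, was at 11.16, 9.60, 9.71, 10.06 and 11.26 in tumors 1 to 5, against 7.55 to 11.16 in glands. Perp, a p53 target of desmosomes, was at 12.85, 3.95, 6.35, 2.41 and 11.24 in tumors, against 8.39 to 10.86 in glands. Perp thus followed the junction genes, low in tumors 2, 3 and 4.

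Among glycolysis and hypoxia genes 4 were higher in tumors, none of them an enzyme of glycolysis, where 6.85% of all genes were higher. Slc16a3, the lactate exporter MCT4, was at 7.97, 4.39, 8.59, 8.11 and 5.60 in tumors 1 to 5, against 2.17 to 3.85 in glands (difference 4.37, limma adjusted p = 0.00941). Adm, the vasodilator adrenomedullin, was at 5.68, 6.90, 8.60, 8.21 and 4.03 in tumors, against 3.39 to 3.67 in glands (difference 3.14, limma adjusted p = 0.0264, lost in 7 of the 10 fits without 1 array). Every tumor was above every gland in both genes, tumor 5 in Adm by a small margin. The 2 collagen hydroxylase genes Plod2, given above, and P4ha1 (4.17, limma adjusted p = 0.0333, lost in 7 of the 10 fits) made up the 4 higher of 23 glycolysis and hypoxia genes, of which 0 were lower (median difference 0.78). The glycolytic enzymes were not called and went both ways, as with Hk1 (1.09), Pfkp (1.34), Hk2 (−1.10) and Pfkl (−1.42). Nor were the hypoxia genes Vegfa (0.88), Car9 (3.19), Bnip3 (−1.01) and Ndrg1 (−0.93) called. Without gland 2 or gland 5 the higher genes of the list numbered 2. Without tumor 2 there were 6 higher and 1 lower, and without tumor 5 there were 5 higher and 2 lower.

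Among aquaporins and carbonic anhydrases some genes were higher and others lower. Aqp5 and Car12 were the 2 higher of 11 genes, and 3 were lower. Aqp3, a water and glycerol channel, was at 6.16, 4.63, 3.06, 2.65 and 4.44 in tumors 1 to 5, against 8.27 to 11.07 in glands (difference −5.51, limma adjusted p = 0.00265). Car4, a membrane-anchored carbonic anhydrase of capillaries and ducts, was at 8.44 in tumor 2 and 2.25 to 2.37 in the others, against 10.15 to 12.54 in glands (difference −7.53, limma adjusted p = 0.00484). Car2, the cytosolic enzyme, differed by −5.24 (limma adjusted p = 0.0122). Car6, a secreted enzyme of saliva and milk, was at 14.07 in tumor 5 and at most 6.43 in the other tumors, against 5.66 to 7.35 in glands.

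Macrophage genes were high where matrix genes were. Their mean level was 8.58, 9.18, 10.08, 10.79 and 6.51 in tumors 1 to 5, against 6.64 to 7.14 in glands. Of 18 genes 3 were higher and 0 lower (median difference 1.82), and 14 were higher without tumor 5, against 6.85% and 11.4% of all genes. The 3 were Cd68 (3.80, limma adjusted p = 0.0323), the complement gene C1qb (1.87, 0.0375) and the chemokine receptor gene Ccr2 (2.33, 0.0445), and without gland 2 or gland 5 the number was 0. Their calls were lost in 7, 9 and 8 of the 10 fits without 1 array, and 2 further probe sets each of C1qb and Ccr2 did not pass. Arg1, an arginase of macrophages and of some tumor cells, was at 3.91, 4.06, 7.88, 11.65 and 13.22 in tumors, against 2.06 to 3.10 in glands (difference 5.55, limma adjusted p = 0.0548), and its order over tumors differed from that of Cd68 (7.83, 11.20, 9.47, 11.57 and 6.02).

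The neutrophil alarmins S100a8 (3.93, limma adjusted p = 0.032) and S100a9 (4.60, 0.0423) were the 2 higher of 5 neutrophil genes, with calls lost in 7 and 9 of the 10 fits without 1 array. Neutrophil genes gave 0 calls without gland 2 or gland 5. Of 22 interferon response genes 1 was higher, Oas1a (1.71, limma adjusted p = 0.046, lost in 9 of the 10 fits), and 0 were lower (median difference 0.58). The higher genes numbered 3 without tumor 5, and 0 without tumor 2, gland 2 or gland 5. With all arrays 6.85% of all genes were higher, so 1 of 22 does not set this list apart. The 4 T cell and 5 B and plasma cell genes tested gave 0 calls each, though 1 T cell gene was higher without tumor 5 and 1 B and plasma cell gene lower without tumor 2. Cd74, the invariant chain of MHC class II, was at 3.44 in tumor 5 and 12.14 to 13.47 in the other tumors, against 11.07 to 11.60 in glands. Of the 6 class II genes tested 0 passed with all tumors, and 4 were higher without tumor 5. Tumor 5 was thus poor in stromal, macrophage and antigen-presenting transcripts at the same time. Of 15 endothelial genes 1 was lower, the angiopoietin receptor gene Tek (−2.47, limma adjusted p = 0.0455, lost in 9 of the 10 fits), and 0 were higher. Without tumor 2 there were 0 higher and 3 lower, without tumor 5 there were 2 higher and 0 lower, and without gland 2 or gland 5 there were 0 calls. With all arrays 7.47% of all genes were lower, so 1 of 15 does not set the endothelial list apart.

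The Brca1-/-p53+/- tumors were also set against the other 36 tumors, as the difference from the equal-weighted mean of the 7 other models. The other models were MMTV-Wnt1, MMTV-PymT, MMTV-Her2/neu, MMTV-H-Ras, MMTV-c-Myc, p53-/- transplant and C3(1)/Tag, which are driven by oncogenes or by loss of p53. Of these 6 were FVB and the p53-/- transplant tumors Balb/C, so model and the 129B6/FVB strain cannot be told apart in this comparison either. This gave 630 higher genes (6.75%) and 1108 lower genes (11.9%), with a median difference of −0.14. The test assumes a common spread, but the Brca1-/-p53+/- tumors had a median SD per gene of 0.86, against 0.24 to 0.67 in the other models. When they were given a variance of their own, 61 genes (0.654%) were higher and 105 (1.13%) lower. Single tumors also moved these counts, to 403 (4.32%) and 620 (6.65%) without tumor 2, to 1085 (11.6%) and 1579 (16.9%) without tumor 5, and to 938 (10.1%) and 1076 (11.5%) without both. For 0 genes did all 5 tumors lie beyond all the other 41 arrays in either direction.

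Epithelial junction genes were lower than in the other models. Of 24 tested 17 were lower and 0 higher (median difference −2.93), and 6 remained lower with the separate variance, namely Cldn3, Cldn7, Dsg2, Esrp2, Prss8 and Rab25. Over all genes 11.9% were lower, or 1.13% with the separate variance. Cldn7 averaged 6.05 in Brca1-/-p53+/- tumors and 11.30 over the other models (difference −5.25, limma adjusted p = 0.00018). Cldn3 differed by −5.10 (0.00012), Rab25 by −4.55 and Epcam by −4.30 (limma adjusted p = 0.0023, or 0.0551 with the separate variance). Tumors 3 and 4 were the lowest of the 5 tumors in these 4 genes, and tumors 1 and 5 were within the range of the other models. Tumors 3 and 4 were below all 36 other tumors in Cldn3 and in Rab25, while 1 MMTV-Wnt1 tumor was also low in Cldn7 (2.37), Cldn3 (6.99), Rab25 (3.40) and Epcam (3.60).

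Mesenchymal genes (10 of 17 higher, 0 lower), matrix genes (16 of 24 higher, 0 lower) and endothelial genes (9 of 15 higher, 0 lower) ran the other way, but with the separate variance the higher genes numbered 0, 0 and 2. Over all genes 6.75% were higher, or 0.654% with the separate variance. Mmp3, stromelysin 1, was at 9.63, 11.79, 12.66, 12.89 and 5.19 in tumors 1 to 5, and exceeded all 36 other tumors in 2 of them (difference 4.84, limma adjusted p = 0.0015, or 0.0751 with the separate variance). Stmn2, a microtubule regulator of neurons, was at 9.52, 2.22, 11.83, 12.74 and 3.52, above all others in 2 tumors (difference 5.23, limma adjusted p = 0.00067). BC018473 was at 13.42, 12.33, 6.06, 8.18 and 2.13 in tumors 1 to 5, and 4 of the 5 were above the highest of the other 36 tumors, which was at 3.96. Hal, histidine ammonia-lyase, which makes urocanate in skin and liver, was at 7.98, 10.82, 2.25, 7.61 and 5.37, with 3 tumors above the 36 others, whose highest was at 7.19. Each of these 4 genes was low in tumor 5 or in tumor 2 or 3. High levels of 3 of them were not limited to this model. Mmp3 ranged from 3.87 to 12.21 in the p53-/- transplant tumors. The MMTV-Wnt1 tumor with low junction genes was at 11.3 in Mmp3. It was the highest of the 36 other tumors in Stmn2 and in Hal, but was near the floor in BC018473 (2.10).

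Among 25 mitosis genes 0 were higher and 6 lower than in the other models (median difference −1.07), of 28 replication genes 7 were lower, and with the separate variance 0 and 1 were lower. The share of all genes that was lower was 11.9%, or 1.13% with the separate variance. Top2a differed by −1.39 and Brca1 by −0.05 from the other models, and neither passed the test. Milk protein genes gave 0 calls in either direction. The tumors were shared by both comparisons.

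**Figure D5:**
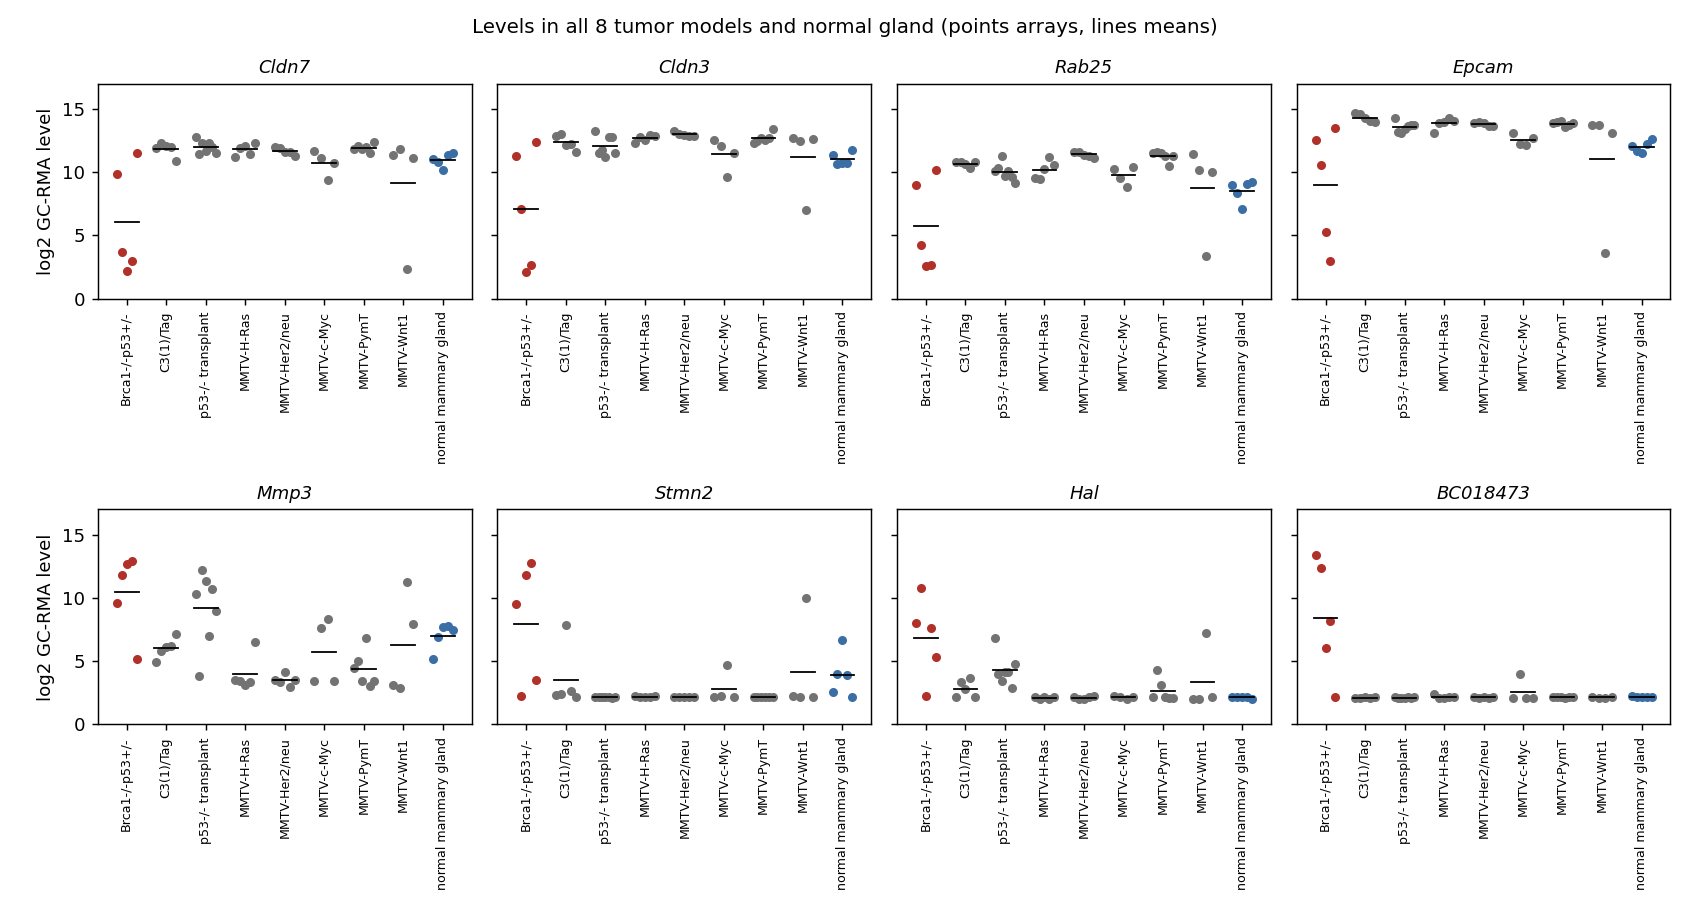
Log2 levels of Cldn7, Cldn3, Rab25, Epcam, Mmp3, Stmn2, Hal and BC018473 for each array of all 8 tumor models and of the glands, Brca1-/-p53+/- tumors at the left and glands at the right. In the 4 junction genes the Brca1-/-p53+/- tumors split into high and low (Cldn3 12.37 to 2.12), and in BC018473 4 of 5 stand above the other 36 tumors, whose highest is at 3.96.

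Each tumor also had genes of its own. A gene was counted for a tumor when that tumor lay more than 2 log2 units beyond the other 4. Tumor 1 had 132 genes above and 36 below, tumor 2 had 374 and 325, tumor 3 had 63 and 44, tumor 4 had 77 and 39, and tumor 5 had 219 and 357. These counts describe single arrays and have no test.

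The genes farthest above in tumor 1 included some of keratinised epithelium. Krtdap, a keratinocyte differentiation gene, was at 12.64 in tumor 1 and at most 3.35 in the others, and Crct1 was at 12.73 and at most 2.31. Sprr1a (12.68) and Krt16 (11.24), a cornified envelope gene and a keratin of wounded skin, were high in the same tumor, where the list as a whole averaged 10.4, against 4.34 to 4.74 in the other tumors. In tumor 2 the 3 genes farthest above were the muscle genes Tnnc2, Tnnt3 and Pvalb, and the 3 farthest below were Top2a, Vcan and Ube2c. Tumor 3 had Igf2, a fetal growth factor, at 14.81 and at most 4.11 in the others, the eye and brain factor Pax6 at 8.79 and the Wnt antagonist Dkk2 at 9.98.

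In tumor 4 Mmp9, gelatinase B, was at 13.05 and at most 7.57 in the others, while Plet1, a placenta and mammary progenitor antigen, was at 2.27 and Igfbp5 at 6.31, the lowest of the tumors. Tumor 5 was high in the secreted products Dcpp1 (12.48), Scgb2b27 (13.35), Scgb1b27 (14.08) and Pip (12.12). The normal mammary glands were low in them, at 2.66 to 3.58, 2.47 to 3.39, 3.15 to 4.71 and 2.74 to 6.87 in that order. Tumor 5 also had Mmp2, gelatinase A, at 2.23, against 11.39 to 12.24 in the other 4.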

How the data were processed

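RNA of 41 mammary tumors and 5 normal glands was hybridized to Affymetrix mouse genome arrays. The authors deposited log2 values, computed with GC-RMA in Partek, after dropping any probe set that MAS5 did not call present or marginal in at least 3 samples. Software versions (GCOS, MAS5, GCRMA, Partek) and scan dates are not given in the sources used here. GC-RMA sets silent genes to about 2, so fold changes from that level depend on the floor. Arrays carry no read depth, and the number of arrays limits the precision. The per-sample columns not used numbered 0.

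The table held 18586 probe sets with 0 missing values (1.70 to 15.98, array medians 6.48 to 7.48). Platform annotation gave 16962 of them 1 gene, 569 several and 1055 none, and 16941 matched the RefSeq gene table by gene ID. Probe sets over 4 in at least 3 arrays were kept (16154, of which 14843 had 1 gene). For the 3568 genes with several, the one of highest mean level across the 46 arrays stood for the gene, leaving 9329 genes.

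Groups came from the sample titles. The 5 tumors and 5 glands were fitted with limma 3.58.1 (lmFit and eBayes, R 4.3.3, statmod 1.5.0, matrixStats 1.5.0), and the second comparison used all 8 tumor models. A gene was called at a Benjamini-Hochberg adjusted p under 0.05 over all 9329 genes. A ± is an SD, and SE comes from limma. The code was tested on simulated data. Plots used Python 3.11.15, numpy 2.4.6 and matplotlib 3.10.9. Promoter windows came from RefSeq on GRCm38.p6. Where the labels give no culture or litter, p values measure the spread between individual animals of these groups.

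The members and gene lists were chosen with earlier results of these data known. Named genes were fixed markers (Brca1, Krt8, Krt18, Krt5, Krt14, Epcam, Cdh1, Vim, Csn2, Adipoq, Mki67), the 10 called genes per direction with the largest difference and no overlap between tumors and glands, up to 3 called members per list and direction with any member given for each array, the 8 per direction with the largest difference from the other models and a mean beyond all 7 of theirs, and the 3 per direction in which each tumor lay farthest from the other 4. Krt16, Sprr1a, Scgb1b27, Pip, Gata6 and Glo1 were chosen after their values were seen. Alternatives were other scalings, floors, probe set rules, variance models and array sets, and the fits without tumors 2 and 5 or with separate variances were chosen after seeing the data.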

Additional observations from a re-analysis of the deposited data

Results flagged for a closer look

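In groups of 5 arrays, single values were far from the other 4 of their group by Dixon's test, which chance alone gives in about 1 in 20 groups. This held for 30 values in 272 groups checked, and many of the genes were chosen for their values. Among the list means these were tumor 1 in the basal/myoepithelial list (10.6) and the keratinised epithelium list (10.4), tumor 2 in the skeletal muscle list (13.7), gland 2 in the same list (5.22) and gland 4 in the cyclin and CDK inhibitor list (7.24).

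In tumor 2, genes of muscle, fat and milk stood out, namely Ckm (14.41), Fabp3 (12.25), Lalba (11.75), Car4 (8.44), Csn1s2b (6.81) and Cnn1 (4.34), all high, and Mki67 (8.44), low. In tumor 1, Krt6a (12.63), Anxa8 (11.79) and Cel (4.25) were high. Tumor 3 was high in Cdk2 (9.49) and Cdc7 (9.37), both cell cycle kinases. Tumor 4 was low in Krt18 (7.83), and tumor 5 in Dcn (3.84) and C1qb (9.30).

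Among the glands, gland 2 was low in Acta1 (9.98), Ckm (3.95), Gadd45a (3.23) and Oas1a (5.05). Gland 1 was high in Ptgs2 (5.63), gland 3 in Cdkn2b (5.88) and gland 4 in Wfdc2 (5.88). Gland 5, which lacked Xist, was high in Thbs1 (7.07), Slc16a3 (3.85) and Cdt1 (9.14).

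In the probe sets given first above, tumor 5 had 3.91 for Xist and 8.62 for Kdm5d, where the other 36 tumors of the series had 9.76 to 13.82 for Xist and at most 2.68 for Kdm5d. Tumor 2 had 6.84 for Glo1, a detoxifying enzyme whose copy number differs between mouse strains, against 9.82 to 10.16 in the other Brca1-/-p53+/- tumors and 9.87 to 10.26 in the glands. This rests on 1 probe set, with a tumor minus gland difference of −0.66, while other Glo1 probe sets differed by −0.01 and 0.54. Tumor 3 had 7.25 for Gata6, a factor of endoderm and heart. What these values come from was not tested.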

How the results depend on the processing

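Against the glands, 639 genes were higher and 697 lower. Array weights gave 1318 and 1151, a fit of all 9 groups 1490 and 1508, and leaving out tumors 2 and 5 gave 1636 and 1277. Leaving out 1 array gave 285 to 1061 higher and 318 to 982 lower genes. With the replicate number as a block, 235 were higher and 335 lower. Same-numbered tumors and glands came from different animals and their deviations correlated at −0.19 to 0.09, so the numbers do not pair them. Median centring moved the share of higher genes among the calls to 53%, against 47.8% with the main scaling. Of 74 called named genes, 41 kept the call under every alternative, 49 under each of the 10 fits without 1 array, and 0 changed direction; the block also ended the calls of Bub1 (adjusted p = 0.0572) and Tjp1 (0.0594). Of the uncalled genes, Krt14 (−0.20) differed by −1.39 without tumor 1, 0.016 without tumor 2, 0.13 without tumor 3, 0.55 without tumor 4, 0.074 without gland 5 and 1.09 without tumors 2 and 4, and Krt18 (−0.15) by −0.59 without tumor 5, 0.86 without tumor 4 and 1.14 without tumors 2 and 4.

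Against the other models, 630 genes were higher and 1108 lower. Leaving out 1 array gave 333 to 1085 higher and 620 to 1579 lower genes. Without tumors 2 and 4 there were 63 and 106, with separate variances 61 and 105. Median centring gave 1066 and 648 (62.2% higher, against 36.2%), quantile scaling 780 and 834 (48.3%), and array weights 684 lower genes. Brca1 (−0.05) differed by 0.17 with array weights, 0.15 with quantile scaling, 0.18 with median centring, 0.039 against the 6 FVB models, 0.37 without tumor 2, −0.38 without tumor 3, 0.48 without tumors 2 and 4 and 0.40 without tumors 2 and 5. Csn2 differed by 0.35 with the most variable probe set, 1.87 against C3(1)/Tag and p53-/- transplant alone, −2.16 without tumor 2, 0.89 without tumor 4 and 0.86 without tumor 5. Krt14 differed by −0.26 against those 2 models and Krt5 by −0.65 without tumor 1 and 1.86 without tumor 4. The cause of these shifts was not tested beyond the change in arrays or scaling itself.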
